A study of Mus musculus with 2 samples.

Results

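The 44 genes described here encode basic leucine zipper (bZIP) transcription factors, listed by gene name from 8 families, out of 22290 genes that the array names. All 44 had probes on the array, and 38 of them were measured, that is, a probe of the gene was well above background in at least 1 of the compared cell populations. Of these, 37 were measured in both populations. A bZIP factor grips DNA through a basic region and pairs with a partner through a zipper of leucines, so that the choice of partner sets the DNA element that is bound. The AP-1 factors (FOS and JUN) respond to growth factors and stress, the CREB factors to cyclic AMP, the C/EBP factors direct differentiation and inflammatory genes, the NRF and BACH factors with their small MAF partners govern antioxidant genes, and the PAR factors carry the output of the circadian clock. C/EBPα and the ALDH gene *Aldh3a1* were examined in the study itself, which asked how the clock component CLOCK relates to stem-like properties of breast cancer cells.

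The mRNA came from 4T1, a mammary carcinoma line from a BALB/C mouse, grown in culture and separated by aldehyde dehydrogenase (ALDH) activity in the ALDEFLUOR assay, with no other treatment, allele or agent named for either population. ALDH-negative cells gave 1 array and ALDH-positive cells gave 1 array, and the sample labels call them anti-cancer stem cells and cancer stem cells. The link from these names to ALDH activity comes from the series' design text and the paper. Neither population was replicated, so there was no test and no p-value is given, and every value below describes these 2 arrays only.

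Values are quantile-normalized signals in intensity units, and the log2 ratio is that of ALDH-positive over ALDH-negative cells. The error printed after a log2 ratio (as -0.42 ± 0.20) is the scanner software's estimate for both spots together, which was 0.20 for bright probes and reached 0.40 for the dimmest member measured in both populations. It covers the reading of the spots and not the difference between cultures. A gene was called higher with a ratio of at least 1.5 and a Z-score of at least 2.0, and lower with a ratio of at most 0.75 and a Z-score of at most -2.0, where the Z-score sets a log2 ratio against those of the probes closest in mean signal (250 brighter and 250 dimmer). Because probes differ in how strongly they bind, signals are compared between populations and not between genes. The sums over cell type markers given further below mostly follow their brightest probes and are not amounts of mRNA. On the ALDH-negative array 48.5% of the probes were well above background, and 49.4% on the ALDH-positive array. Both arrays lay on 1 slide and were scanned together, so neither sets the populations apart.

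None of the 38 measured bZIP genes was called higher in ALDH-positive cells, where 1.35% of all 14041 measured genes were. Only *Jun* was called lower, which is 2.63% of the measured bZIP genes beside 2.08% of all measured genes. By size alone, 4 genes (*Creb5*, *Creb3l4*, *Dbp* and *Bach2*) had a log2 ratio of at least 0.32, or 10.5% beside 12.6% of all measured genes. *Bach2* was not above background in ALDH-negative cells, and 3 genes passed this limit among those measured in both populations. In the other direction, 3 genes (*Jun*, *Creb3l1* and *Mafa*) had a ratio of at most 0.8, which is a log2 ratio of -0.32, or 7.89% beside 8.34%. The log2 ratio was larger than its scanner error in 13 genes, 9 of them above 0 and 4 below, which is 34.2% beside 33.1% of all measured genes in either direction. The median log2 ratio was 0.061, beside 0.045 over all measured genes, with 23 genes above 0 and 15 below. That is 60.5% above 0, the same share as among all measured genes (60.5%). Each of these shares lay near that of the whole array.

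**Figure D1:**
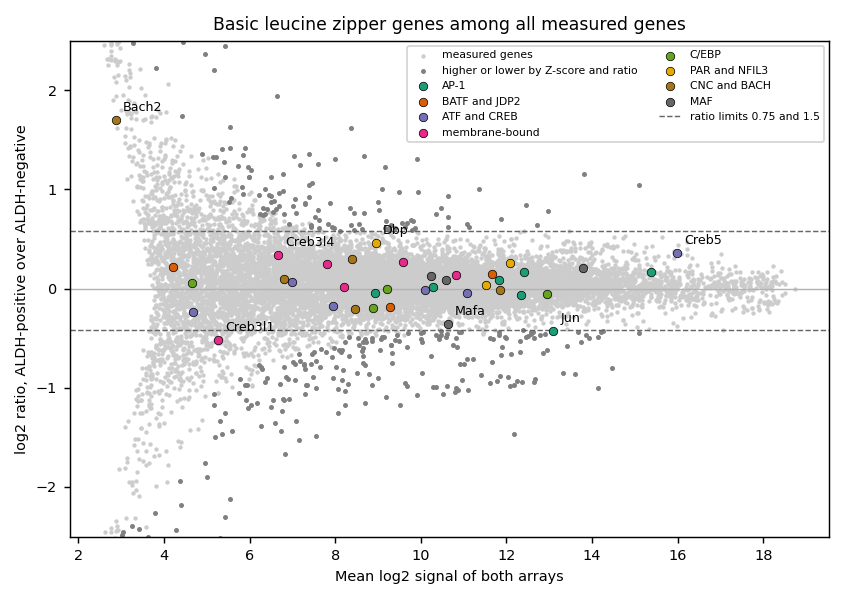
The log2 ratio of ALDH-positive over ALDH-negative cells (vertical axis) is plotted against the mean log2 signal of both arrays (horizontal axis) for 14041 measured genes, with 172 genes beyond ±2.5 outside the plotted range. Coloured points are the 38 measured bZIP genes by family, dark grey points are genes called higher or lower, and dashed lines are the ratio limits of 0.75 and 1.5. *Jun* lies just under the lower line, *Bach2* lies among dim genes whose ratios scatter widely, and *Creb5* is the brightest of the coloured points.

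The direction of these ratios is relative to the rest of the array. Before normalization the ALDH-positive array was brighter, with a median log2 ratio of 0.55 over all measured genes. The bZIP genes shared that shift, with a median of 0.54 and 37 of the 38 above 0 at their brightest probes. *Creb3l1* alone lay below 0 by this count, at -0.18. Dimmer measured probes of *Fosl2* and *Atf7* were also below 0, at -0.28 and -0.27.

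**Figure D2:**
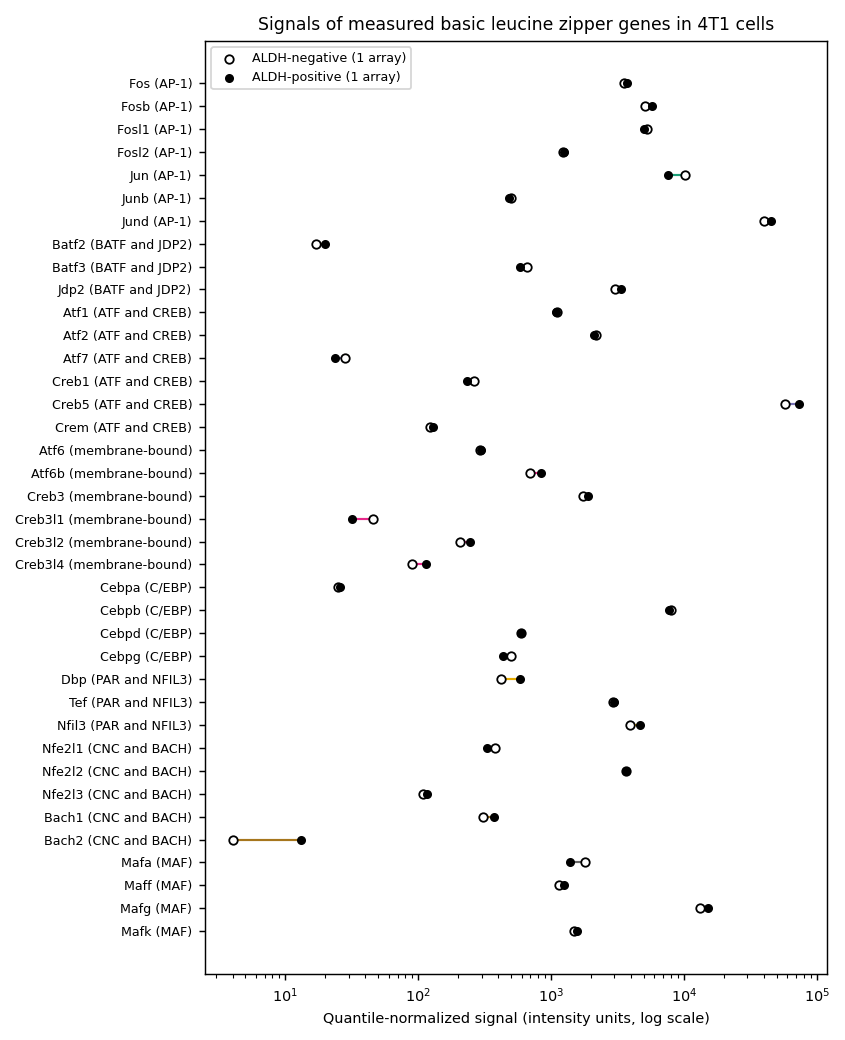
Quantile-normalized signals (intensity units, log scale) of the 38 measured bZIP genes are drawn with an open circle for ALDH-negative cells and a filled circle for ALDH-positive cells, 1 array each, with no error bars. In most genes the circles touch, and the gap is widest for *Bach2*, whose open circle is below the background limit.

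CLOCK, whose role the study examined, binds the E-box, spelled CACGTG, and the bZIP factors bind elements of their own, so the promoters of the 44 genes were searched for these letters. RefSeq promoters (GRCm38.p6, 250 bases before to 50 after a start site) were at hand for 34 of the genes, and not for *Atf6*, *Batf2*, *Cebpd*, *Cebpe*, *Creb3l1*, *Crem*, *Fosl1*, *Maf*, *Mafa* and *Nfe2*. On either strand, the E-box was found in 9 of the 34 genes (26.5%), against 8.09% of 27025 genes with a promoter. The cyclic AMP response element (CRE), TGACGTCA, was found in 3 genes (8.82%, against 2.03%), and the AP-1 element TGANTCA in 2 (5.88%, against 8.97%). The antioxidant response element TGACNNNGC was found in 7 genes (20.6%, against 14%), the D-box TTATGTAA in 1 (2.94%, against 1.11%), and the C/EBP palindrome TTGCGCAA in none, against 0.207%. A gene with more promoters has more room for a match, and the 34 genes had 47 promoters. Per promoter, the shares were 21.3% against 7.15% for the E-box and 6.38% against 1.79% for the CRE. They were 4.26% against 7.81% for the AP-1 element, 14.9% against 12.4% for the antioxidant response element and 2.13% against 0.938% for the D-box. A match is a run of letters and not a site shown to be bound, and these shares are descriptions without a test.

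The stretches printed here are those of E-box genes with the log2 ratios farthest above 0 (*Creb5*, *Atf6b* and *Mafg*) and below 0 (*Atf7* and *Batf3*), followed by the D-box of *Jdp2*. Each is written 5′ to 3′ on the gene's strand and ends before the listed start site, with the matched letters in capitals. In *Creb5* the E-box overlaps a CRE, so that both share 1 run of capitals. The *Jdp2* D-box reads on the opposite strand, and the *Batf3* stretch is short because the searched window begins there.
Creb5 (chr6:53287245-53287274, plus strand, E-box from base -49 and CRE from base -45): caggaatccCACGTGACGTCAccggggggg
Atf6b (chr17:34647088-34647113, plus strand, E-box from base -48): tccttcgtgtCACGTGttcaccaact
Mafg (chr11:120633573-120633598, minus strand, E-box from base -41): gaatggaaccCACGTGaccaaacatc
Atf7 (chr15:102625596-102625621, minus strand, E-box from base -147): tgcagccgaaCACGTGcgagtcgtgt
Batf3 (chr1:191098164-191098182, plus strand, E-box from base -247): tgcCACGTGacttccacga
Jdp2 (chr12:85599045-85599072, plus strand, D-box from base -50): ggggatgcgcTTACATAAccgctcgccg
Positions count back from the start site, with -1 the base before it. The stretches of *Creb5*, *Mafg* and *Jdp2* lie inside the span that RefSeq gives the whole gene. The other E-box genes were *Atf1*, where the E-box overlaps an antioxidant response element, *Maff*, *Mafk* and *Tef*. All 9 E-box genes were measured, with log2 ratios from -0.24 to 0.36 and a median of 0.085. The 22 measured genes whose promoters lacked an E-box had a median of 0.094. Log2 ratios were above 0 in 6 of the 9 and in 14 of the 22, beside the 60.5% of all measured genes.

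*Jun* was the AP-1 gene, and the bZIP gene, that was called lower. Its protein is an AP-1 subunit that can pair both with itself and with the FOS proteins. The signal of *Jun* was 10119 in the ALDH-negative and 7546 in the ALDH-positive population, from a probe at chr4:94716928-94716987 on the minus strand (NCBI37, the build of the array files). The log2 ratio was -0.42 ± 0.20, and the Z-score was -2.34. The ratio of 0.746 lay just inside the limit of 0.75, and when the arrays were aligned at their 75th percentile instead the log2 ratio was -0.34 and the call was lost. Before normalization the *Jun* signal was 8355 in the ALDH-negative and 9112 in the ALDH-positive population, so that *Jun* was lower only relative to the other genes. Its promoter was among those searched and held none of the 6 elements.

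The remaining AP-1 genes lay between -0.062 and 0.17 on the log2 scale at their brightest probes. *Jund*, whose protein is the JUN subunit that is present in resting cells, had signals of 40319 and 45371, and *Junb* of 497 and 483, in ALDH-negative cells and ALDH-positive cells. Their log2 ratios of 0.17 and -0.040 were smaller than the error. *Fos*, the partner of JUN induced within minutes of a stimulus, was printed on the array many times, and 9 spots on the ALDH-negative array and 10 on the ALDH-positive array gave an SD of 0.049 and 0.041 (log2) within each array. Its signals of 3521 and 3742 gave a log2 ratio of 0.088. *Fosb* had a log2 ratio of 0.17 and *Fosl1*, which encodes FRA-1, one of -0.062. *Fosl2*, which encodes FRA-2, had a brighter probe at 0.014 (signals 1239 and 1251) and a dim probe at -0.60 with an error of 0.31 (signals 36.1 and 23.9). The dim probe lay near the far edges of the array (its last eighth by row or column), and no level can be read from the disagreement of the probes. The median over the 7 AP-1 genes was 0.014, with *Jun* the lowest of them.

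**Figure D3:**
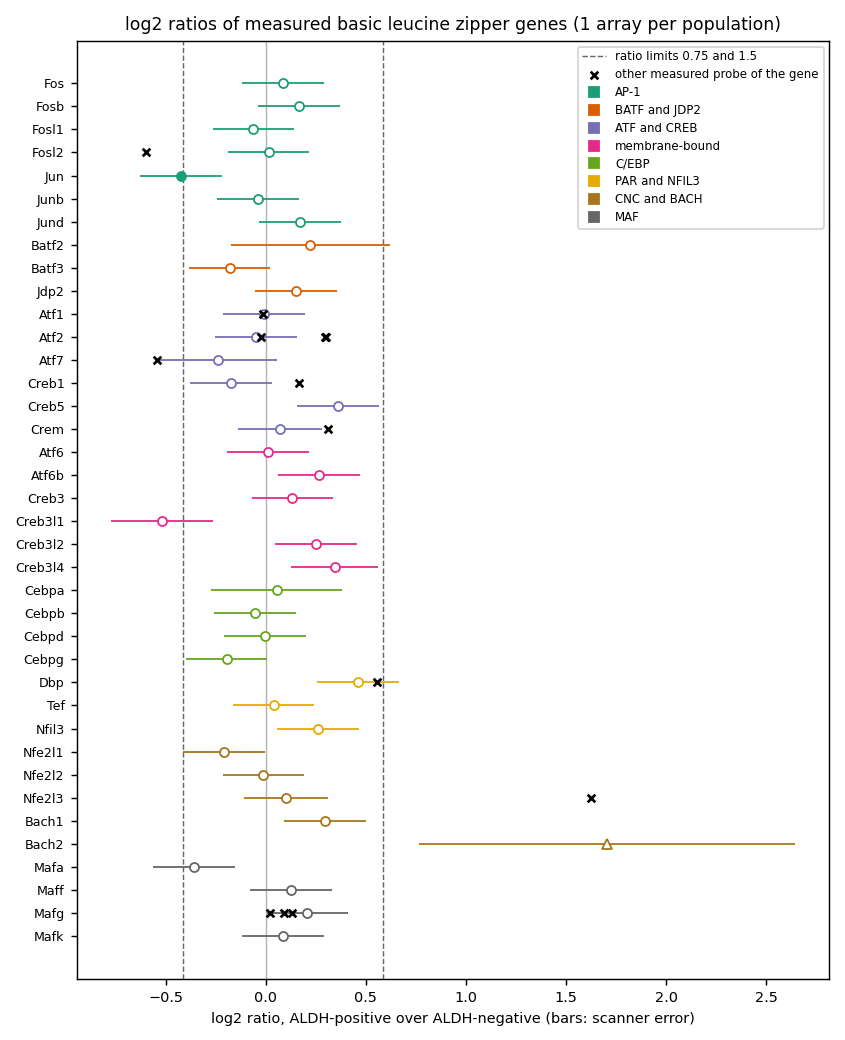
The log2 ratio of ALDH-positive over ALDH-negative cells (horizontal axis) is shown for the 38 measured bZIP genes, with the brightest measured probe as a circle, the scanner error as a bar and colours for families. The filled circle is the gene called lower (*Jun*), the triangle is the gene above background in ALDH-positive cells only (*Bach2*), crosses are other measured probes of the same gene, and dashed lines are the ratio limits of 0.75 and 1.5. Most bars cross 0, and those of 13 genes, *Dbp*, *Creb5* and *Jun* among them, do not.

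The small factors that pair with JUN and temper AP-1 were close to equal as well. *Jdp2*, whose protein represses AP-1 targets and whose promoter held the D-box printed above, was at 0.15 (3051 and 3388). *Batf3*, known for its part in dendritic cells, was at -0.18 (signals 661 and 583). *Batf2* was dim (17.1 and 20.0), with a log2 ratio of 0.22 and an error of 0.40. *Batf*, a factor of lymphocytes, was not well above background in either population.

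Among the ATF and CREB genes, *Creb5* showed the clearest difference. Its protein belongs with ATF2 and ATF7, which pair with JUN at CREs. The *Creb5* signal was 57519 in the ALDH-negative and 73840 in the ALDH-positive population (probe at chr6:53645678-53645737, plus strand). This was a ratio of 1.28, a log2 ratio of 0.36 ± 0.20 and a Z-score of 2.62, as the ratios of genes this bright spread little. The Z-score passed its limit and the ratio did not reach 1.5, so *Creb5* was not called. A further *Creb5* probe, at chr6:53598941-53599000, was not well above background in either population.

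The cyclic AMP responsive factors and the partners of *Creb5* showed no common direction. *Creb1*, the factor activated through protein kinase A, had log2 ratios of -0.17 (signals 263 and 233) and 0.17 at its brighter and dimmer probes. The dimmer *Creb1* probe passed the background limit in ALDH-positive cells only, at 18.2 against 16.2, with an error of 0.42 on its log2 ratio. *Atf1* was at -0.010 and -0.012 at its 2 measured probes, of which the array files place the brighter on chromosome X and the dimmer on chromosome 15, where the gene's promoter lies. *Crem*, some of whose products repress cyclic AMP responses, was at 0.069 and 0.31. *Atf2* had 4 measured probes, and their log2 ratios ran from -0.048 at the brightest to 0.30. *Atf7* was dim at both probes, with signals of 27.9 and 23.6 (log2 ratio -0.24, error 0.30) and of 25.6 and 17.6 (log2 ratio -0.54, error 0.37). The median over the 6 ATF and CREB genes was -0.029.

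The membrane-bound factors sit in the endoplasmic reticulum until 2 proteases of the Golgi release them to the nucleus. The median log2 ratio of the 6 measured ones was 0.19, beside 0.045 over all measured genes. Of these 6, 4 were beyond their error (3 above 0 and *Creb3l1* below), where 33.1% of all measured genes were in either direction. *Creb3l4* was at 0.34 ± 0.22 (90.5 and 114.8), with a Z-score of 0.83. Its ratio was 1.27, and the log2 ratio was 0.20 without background correction, where it no longer reached the size limit of 0.32. Its spot and that of *Creb3l2* lay near the far edges of the array. *Atf6b* (695 and 837), the relative of ATF6 whose promoter stretch is shown above, was at 0.27, and *Creb3l2* (206 and 245) at 0.25. *Creb3* was at 0.13 and *Atf6*, the activator of chaperone genes in the unfolded protein response, at 0.013. *Creb3l1*, whose protein drives collagen secretion in bone, ran the other way. Its signals were 45.8 and 32.0, the log2 ratio was -0.52 ± 0.25, and the Z-score was -0.85, a common ratio among genes this dim. The *Creb3l1* log2 ratio was -0.18 with normexp background correction and -0.20 with none. *Creb3l3*, a liver factor, was not well above background.

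The C/EBP genes were nearly equal in both populations. *Cebpa*, which encodes C/EBPα, a factor of liver, fat and myeloid cells, was dim, with signals of 24.7 and 25.7, a log2 ratio of 0.054 and an error of 0.33. An error of this size leaves room for a modest difference in either direction. *Cebpb*, induced by inflammatory signals, was at -0.055 (8033 and 7734). *Cebpd* was at -0.0049 (595 and 593), and *Cebpg*, which lacks an activating domain of its own, was at -0.20 (502 and 438). *Cebpe*, a factor of granulocytes, was not well above background.

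The 3 measured genes of the PAR and NFIL3 family, which act on D-boxes downstream of the clock, had log2 ratios from 0.039 to 0.46. *Dbp* and *Nfil3* were beyond their error, as were 33.1% of all measured genes. *Dbp*, a direct E-box target of CLOCK in other tissues, had signals of 422 in the ALDH-negative and 580 in the ALDH-positive population at its brighter probe (chr7:52965322-52965381, plus strand). That gave a log2 ratio of 0.46 ± 0.20 and a Z-score of 1.95. At its other probe (chr7:52965461-52965520) the signals were 299 and 439, with a log2 ratio of 0.55 ± 0.21 and a Z-score of 2.33. Both probes therefore pointed the same way and neither was called, as the ratios of 1.38 and 1.47 were under 1.5. The *Dbp* promoter held none of the 6 elements within its window, which says nothing of elements elsewhere in the gene. *Nfil3*, whose protein represses from the same D-boxes, was at 0.26 (3936 and 4717). *Tef* was at 0.039 (2912 and 2992), and *Hlf* was not well above background.

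The CNC and BACH genes held the largest ratio of all and also the least certain one. *Bach2*, a repressor known from lymphocytes, passed the background limit only in ALDH-positive cells, with signals of 4.05 and 13.2 (probe at chr4:32673009-32673068, plus strand). As a bound, the *Bach2* signal was at least 1.003-fold higher in ALDH-positive cells, which leaves no difference established, and its log2 ratio of 1.70 ± 0.94 became 0.19 with normexp or with no background correction. *Bach1*, the heme-regulated repressor of antioxidant genes, was measured in both populations, at 0.30 (305 and 375). *Nfe2l2*, which encodes their rival NRF2, was at -0.012 (3684 and 3653). *Nfe2l1*, which encodes the activator of proteasome genes, was at -0.21 (379 and 327). *Nfe2l3* was at 0.10 (108 and 116), while its dim probe (4.87 and 15.0) passed the background limit in ALDH-positive cells only, with a bound of at least 1.14-fold higher. *Nfe2*, the family's erythroid member, was not well above background.

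The small MAF proteins have no activating domain and pair with the CNC and BACH factors. *Mafg* had 4 measured probes between 0.019 and 0.21, with signals of 13168 and 15208 at the brightest, and its E-box stretch is shown above. *Maff* was at 0.13 and *Mafk* at 0.085. *Mafa*, a large MAF known as an activator of the insulin gene, differed more, with signals of 1795 in the ALDH-negative and 1401 in the ALDH-positive population (chr15:75577714-75577773, minus strand). Its log2 ratio was -0.36 ± 0.20 and its Z-score -1.83, so that *Mafa* was not called. The *Mafa* spot lay near the same edges, as did 15 of the 51 measured bZIP probes (29.4%), against 24.3% of all measured probes. *Maf* was not well above background.

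In all, the 6 bZIP genes that were not measured (*Batf*, *Creb3l3*, *Cebpe*, *Hlf*, *Nfe2* and *Maf*) had 7 probes, with signals from 2.64 to 9.05. They include factors known from blood cells and liver. Their mRNA may be absent or below what these probes detect, which cannot be told apart here.

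Further genes of the same pathways were taken from lists. Of 10 other bZIP genes, 7 were measured and none was called, with log2 ratios at their brightest probes from -0.034 (*Atf5*) to 0.23 (*Ddit3*, which encodes CHOP). *Crebl2* was at 0.14 with a dimmer probe at 0.66, a dimmer probe of *Crebzf* was at -0.42, and *Atf4*, the main factor of the integrated stress response, at 0.15 with a dimmer probe at -0.22. Of 10 coactivators and corepressors, all were measured and 1 was called lower. This was *Crebbp*, the acetyltransferase that binds phosphorylated CREB, with signals of 6875 and 4950, a log2 ratio of -0.47 ± 0.20 and a Z-score of -2.40. The other *Crebbp* probe was at -0.10, so the call rested on 1 of 2 probes. Its relative *Ep300* was at 0.20 and *Ncoa1* at 0.20. Of 18 kinases, proteases and degradation factors, 17 were measured, none was called and all lay between -0.19 and 0.21 at their brightest probes. Dimmer probes went further, to -0.82 in *Mapk14*, -0.71 in *Rps6ka3* and 0.66 in *Trib2*. Among them *Mapk9* (JNK2) was at 0.21 and *Cul3*, which with KEAP1 degrades NRF2, at -0.19.

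Target genes of each family were read in the same way. Of 12 AP-1 targets, all measured, 1 was called lower and none higher, with a median of 0.011. The gene called lower was *Dusp5*, a phosphatase of ERK, with signals of 220 and 139, a log2 ratio of -0.66 ± 0.21 and a Z-score of -2.32. *Areg*, an EGF receptor ligand, was at -0.41, and the collagenase gene *Mmp13*, which was dim (27.5 and 41.4), at 0.59. Neither was called. Of 10 CREB targets, 9 were measured and none was called, with a median of 0.19 and *Pde4d*, *Per1* and *Sik1* at 0.27, 0.26 and 0.19. *Pde4d* was dim (28.4 and 34.3), with an error of 0.27. Dimmer probes were at 0.67 and -1.55 in *Pde4b*, 0.45 in *Nr4a2* and -0.24 in *Gem*. All 10 ATF6 targets lay between -0.19 and 0.082, with the chaperone gene *Hspa5* at -0.015.

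Of 8 C/EBP targets, 6 were measured and 1 was called higher. This was *Lcn2*, the secreted iron-carrier lipocalin, with signals of 399 and 689, a log2 ratio of 0.79 ± 0.20 and a Z-score of 3.43. *Aldh3a1* was at 0.025 at its brighter probe (2588 and 2633) and at 0.62 at its dimmer one. *Il6* and *Hp* were above background in ALDH-positive cells only, so that the median of 0.41 for this list rests partly on genes with a bound. Of 7 PAR targets, 4 were measured and none was called, from -0.14 (*Pdxk*) to 0.25 (*Alas1*). All 12 targets of NRF2 and BACH1 were measured and none was called, with a median of -0.076. *Slc7a11*, the cystine transporter, was at -0.61 (141 and 92.6, Z-score -1.77), *Nqo1* at 0.30 and *Gclm* at -0.19.

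**Figure D4:**
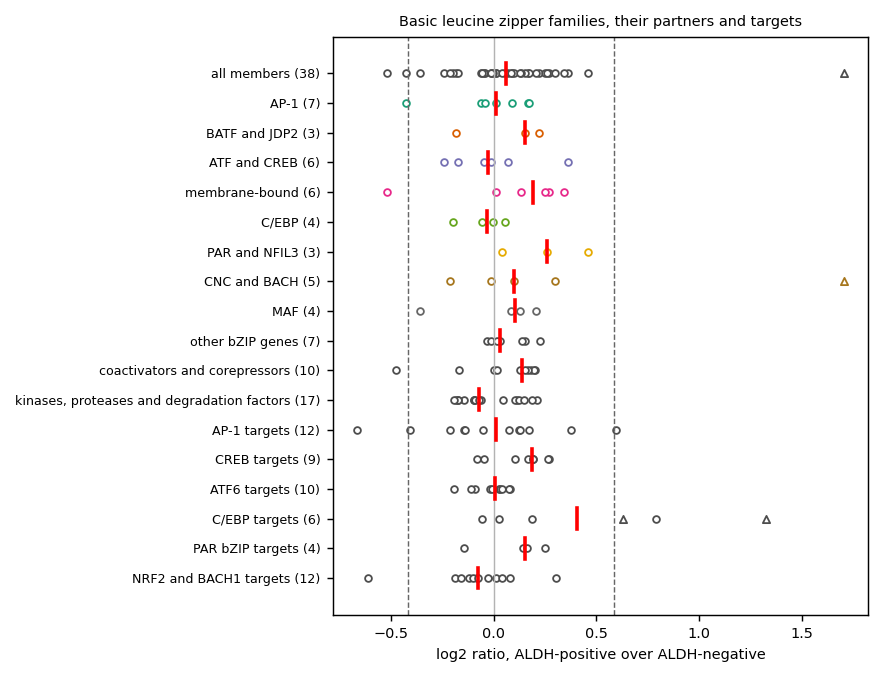
Each point is the log2 ratio of ALDH-positive over ALDH-negative cells of 1 measured gene, by bZIP family or by list of partners and targets, with the number of measured genes in brackets. Red bars are medians, triangles are genes above background in 1 population only, and dashed lines are the ratio limits of 0.75 and 1.5. The medians of all rows but that of the C/EBP targets lie between -0.076 and 0.26. The C/EBP target median of 0.41 counts *Il6* and *Hp*, whose signals in ALDH-negative cells did not pass the background limit. The C/EBP targets measured in both populations were *Lcn2* (0.79), *Csf3* (0.19), *Aldh3a1* (0.025) and *Pparg* (-0.056).

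Markers of cell types also differed between the arrays. All 6 epithelial markers were measured, and *Krt14* and *Cldn7* were called higher. The summed signal of all 6 was 322787 in the ALDH-negative and 366428 in the ALDH-positive population. Most of this sum is *Krt18* (206389 and 231164) and *Krt8* (106882 and 120908), neither of which was called. Of 6 leukocyte markers 3 were measured, with *Itgam* called lower at its brightest probe (its others were at 0.38 and -0.67). Their summed signal was 9189 and 5228, most of it *Itgam* (7301 and 3795). *Ptprc*, the common leukocyte antigen, was not well above background, and *Adgre1* had no probe. Of 4 endothelial markers 2 were measured, with *Kdr* called lower (7292 and 5394), *Pecam1* at 0.21 (27.0 and 31.3) and a sum of 7319 and 5426 that is nearly all *Kdr*, and of 5 fibroblast markers 2 were measured, with a sum of 163 and 149. In bulk RNA, fewer cells of a kind and less RNA per cell cannot be told apart, and the part of these markers in the bZIP values was not tested.

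The log2 ratios were recomputed with other ways of processing the signals. *Creb5* stayed between 0.35 and 0.43 and *Dbp* between 0.37 and 0.51 on the log2 scale. *Jun* stayed between -0.45 and -0.34. *Mafg* was at 0.0070 with those edges left out, where another of its probes stood for the gene. The 9 genes that had both signs among the alternatives (*Atf1*, *Atf2*, *Atf6*, *Cebpa*, *Cebpb*, *Cebpd*, *Fosl1*, *Fosl2* and *Nfe2l2*) have no direction that can be stated. The same holds for all 25 genes whose log2 ratio was within its scanner error, these 9 included. Among them is *Creb1*, with measured probes at -0.17 and 0.17.

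**Figure D5:**
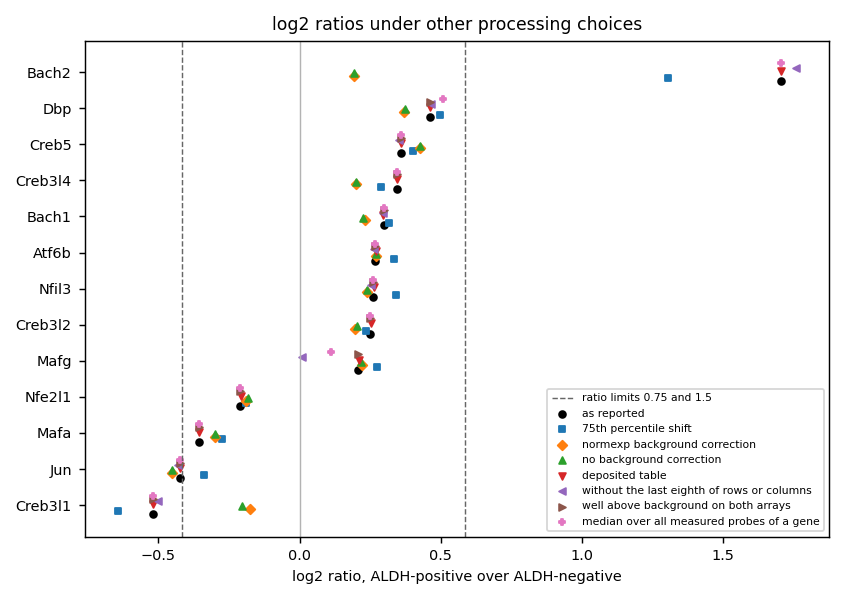
The log2 ratio of ALDH-positive over ALDH-negative cells is shown for the 13 bZIP genes whose reported ratio exceeded the scanner error, under the reported processing (black circles) and each alternative (other symbols), with dashed lines at the ratio limits of 0.75 and 1.5. All 13 genes stay on their side of 0 under each alternative that gave them a value, with *Mafg* as low as 0.0070. *Creb3l2*, *Creb3l4*, *Nfe2l1* and *Mafa* have no value with the last eighth of rows or columns left out. *Bach2* has none where both populations had to be above background. *Bach2* and *Creb3l1* move toward 0 without background subtraction or with normexp.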

How the data were processed

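Each population of 4T1 cells was measured on 1 Agilent SurePrint G3 Mouse 8 × 60K array (1-colour, Cy3, 50 ng of total RNA). The sources differ on the RNA kit (RNeasy in the paper, ReliaPrep in the labels). The authors read the spots with Agilent Feature Extraction, version 9.5.1.1 per the labels and 10.7.1.1 per the file headers, which gave background-subtracted signals in intensity units, and their deposited table holds quantile-normalized intensities of 55681 probes. Here, the 3671 control spots of 62976 and population outliers (135 and 116 spots) were left out, signals under 1 were set to 1, repeated spots were averaged as log2 values, and both arrays were quantile-normalized. The ratio and Z-score limits follow the paper, which does not define the Z-score. The brightest measured probe stood for a gene. For a gene measured on 1 array, the bound compares it with the lowest signal well above background on the other, or with the probe's own signal there where that is higher. Motifs were counted per gene over all its promoters.

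All 44 members were described, with full values for those called, past a log2 ratio of 0.32 or -0.32 with any probe, or with probes over 0.5 apart, and up to 3 genes farthest from 0 with any called gene for each list; not every gene this covers is printed and some chosen for their role were added. The members and lists were chosen with earlier results of these data known. Alternatives were a 75th percentile shift, normexp (limma 3.58.1, R 4.3.3, offset 50), no background correction, the deposited table, other filters and other Z-scores. Scripts used Python 3.11.15 with numpy 2.4.6 and pandas 2.3.3 and were tested on simulated data. The exon of each probe was not analysed here. The number of arrays limits the precision.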

Additional observations from a re-analysis of the deposited data

How the results depend on the processing

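No paired analysis was possible because each population had 1 array. The calls among the bZIP genes depended on the rule. With a Z-score over all probes, 1 gene was higher (*Bach2*) and 0 were lower, beside 214 and 185 of all 14041 measured genes. With a 75th percentile shift, or with 1/1.5 as the lower ratio limit, 0 were lower, beside 257 and 233 of all measured genes. With normexp and with no background correction, 2 genes had a log2 ratio of at least 0.32 and 1 of at most -0.32 in each case. These counts fell over the whole array as well. They were 718 and 496 of all measured genes with normexp and 673 and 469 with no background correction, against 1773 and 1171 as reported. The median log2 ratio of the bZIP genes ran from 0.027 to 0.086 over the alternatives. It was below that of all measured genes with the 75th percentile shift (0.078 beside 0.090) and normexp (0.027 beside 0.039). The same was so with no background correction (0.028 beside 0.038), and otherwise it was above. Over all measured genes, 39.4% of the called genes were higher, against 28.98% with normexp, 26.7% with no background correction and 53.6% when the Z-score used all probes. Of 256 recomputed log2 ratios of single bZIP genes, 6 moved by more than their own error, in *Fosl2* and *Nfe2l3* (to -0.29 and 0.86 with the median over all probes), *Creb3l1* and *Bach2*. Without the last eighth of rows or columns, 9 bZIP genes were not measured. The causes were not tested.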
